A study of Mus musculus with 10 samples.

Results

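The Cdkn2a and Cdkn2b tumour suppressor locus was profiled for CpG methylation in leukaemic spleen cells of mice. Its members were all CpGs of mm9 chr4:88915000-88962000, and a CpG was used in a comparison if each library compared had 5 or more reads on it. Of 5677744 autosomal CpGs listed in any library, 453 lay at the locus. At 5 reads, 110 of 574642 CpGs entered the comparison of knockin with WT in MLL-AF9 leukaemia and 175 of 874606 that in cMyc-Bcl2 leukaemia, and 104 of 519795 entered the comparisons over all 10 libraries. Comparing the oncogenes used 127 of 558455 CpGs among WT leukaemias and 131 of 617486 among knockin leukaemias.

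The assay was reduced representation bisulfite sequencing, in which CpG-rich MspI fragments are bisulfite converted so that unmethylated cytosines are read as thymines. Knockin leukaemias came from a tetracycline-inducible knockin mouse model of Dnmt3b, a de novo DNA methyltransferase, and WT leukaemias carried the WT label for that knockin. The groups were cMyc-Bcl2 knockin (n = 2) and MLL-AF9 knockin (n = 3), set against cMyc-Bcl2 WT (n = 2) and MLL-AF9 WT (n = 3). MLL-AF9, a fusion of a histone methyltransferase found in acute leukaemias, is the oncogene of 1 model, and its libraries were made from c-kit+ leukaemic spleen cells; those of the cMyc and Bcl2 model, which combines a growth-promoting transcription factor with an inhibitor of apoptosis, were from leukaemic spleen cells with no such selection named. The c-kit+ selection and the oncogene therefore cannot be told apart. The labels give no age, no inducing agent or its dose, and do not state whether replicates are different animals; p-values therefore describe the spread of these libraries alone, which may be technical. The files hold methylation calls only, so neither Dnmt3b level nor cell identity was checked. Libraries held 14183423 to 45976478 autosomal read calls, of which 2497 to 9022 lay at the locus.

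Cdkn2a encodes 2 unrelated proteins from separate first exons that share downstream sequence in different reading frames. p16Ink4a inhibits the cyclin D kinases Cdk4 and Cdk6 and so keeps the retinoblastoma protein active, and p19Arf binds Mdm2 and stabilises p53. The neighbouring Cdkn2b encodes p15Ink4b, a second inhibitor of Cdk4 and Cdk6. In stem and progenitor cells the locus is kept silent by Polycomb complexes, and in many leukaemias it is lost by deletion or silenced by promoter methylation.

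The promoter sequences are shown for their CpGs and MspI sites, which set what the assay can read. Each is the RefSeq sequence of GRCm38.p6, 250 bases before to 50 after the transcript start, 5′ to 3′ on the minus strand; capitals mark CpGs that entered a comparison of knockin with WT. All 12 CpGs of the Ink4a sequence, 45 of the Arf sequence and 18 of the Cdkn2b sequence matched CpG positions listed in the files, at chr4:88928047-88928346, chr4:88940474-88940773 and chr4:88956892-88957191 of mm9; the next best place on the chromosome matched 8, 20 and 11.
Ink4a promoter: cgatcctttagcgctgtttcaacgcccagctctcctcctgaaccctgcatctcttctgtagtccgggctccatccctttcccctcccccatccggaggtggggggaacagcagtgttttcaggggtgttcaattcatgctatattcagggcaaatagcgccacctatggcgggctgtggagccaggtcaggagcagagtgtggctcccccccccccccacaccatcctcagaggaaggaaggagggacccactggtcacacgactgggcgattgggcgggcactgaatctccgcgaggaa
Arf promoter: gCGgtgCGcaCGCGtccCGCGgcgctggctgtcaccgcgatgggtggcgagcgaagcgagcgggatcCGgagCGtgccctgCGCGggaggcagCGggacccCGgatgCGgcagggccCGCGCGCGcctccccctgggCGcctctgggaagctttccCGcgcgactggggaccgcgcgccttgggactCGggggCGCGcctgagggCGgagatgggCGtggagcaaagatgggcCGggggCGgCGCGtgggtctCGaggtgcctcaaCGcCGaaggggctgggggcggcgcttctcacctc
Cdkn2b promoter: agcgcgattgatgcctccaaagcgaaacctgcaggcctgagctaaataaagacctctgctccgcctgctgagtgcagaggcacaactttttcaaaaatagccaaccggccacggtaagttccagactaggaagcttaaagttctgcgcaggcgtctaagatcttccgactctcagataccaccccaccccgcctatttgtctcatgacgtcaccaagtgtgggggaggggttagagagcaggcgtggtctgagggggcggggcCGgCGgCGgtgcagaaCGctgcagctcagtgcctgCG
The MspI site CCGG occurred 2 times in the Ink4a sequence, 3 times in the Arf sequence and 2 times in the Cdkn2b sequence, and 52.8% of 32851 RefSeq promoters of this length held at least 1. The starts placed on mm9 were 88928096 for Ink4a, 88940523 for Arf and 88956941 for Cdkn2b, so Arf lay 12427 bases upstream of Ink4a and Cdkn2b 16418 bases upstream of Arf. By the RefSeq lengths, Cdkn2a spans 20147 bases from the Arf start and Cdkn2b 4744 bases. Exon boundaries were not used here.

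Averaged over its CpGs, each counted once, the locus was little methylated in every group. In MLL-AF9 leukaemia mean methylation over 110 CpGs was 12.3%, 15.4% and 12.9% in the knockin libraries, against 8.03%, 10.2% and 10.3% in the WT libraries. The groups did not overlap, and the means were 13.5 ± 1.67% in knockin and 9.53 ± 1.30% in WT (SD, n = 3 each), a difference of 3.98 points. By an exact two-sided permutation test p was 0.1, and 3 against 3 libraries can go no lower. In cMyc-Bcl2 leukaemia the mean over 175 CpGs was 12.5% and 8.74% in the knockin libraries, against 9.01% and 6.0% in the WT libraries. These groups overlapped, and the difference of 3.14 points had an exact permutation p of 0.667, with 0.333 the smallest that 2 against 2 allow. Over all autosomal CpGs the same differences came to 2.45 points for MLL-AF9 and to 3.10 points for cMyc-Bcl2. The difference at the locus was thus close to the autosomal one in cMyc-Bcl2 and above it in MLL-AF9. Whether the locus differs from the rest was not tested.

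With both models stratified by oncogene, knockin exceeded WT by 3.76 points over 104 CpGs (exact permutation p = 0.0333, with 0.0167 the smallest of 120 arrangements). Adjusted over the 18 tests of mean methylation by Benjamini-Hochberg, that p was 0.6, and weighting CpGs by reads brought the difference to 2.45 points with an exact permutation p of 0.2. Leaving out single libraries gave 2.69 to 4.83 points, and the exact permutation p was 0.05 or above without any 1 of the MLL-AF9 WT libraries, MLL-AF9 knockin replicate 2, cMyc-Bcl2 WT replicate 2 or cMyc-Bcl2 knockin replicate 1. The knockin effect differed between cMyc-Bcl2 and MLL-AF9 by -0.0988 points (exact permutation p = 0.95 over 100 arrangements).

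The level varied far more along the locus than between groups. Methylation was summed in 1-kb windows with at least 3 CpGs and tested by a quasi-binomial fit over all autosomal windows, and a call needed 10 points or more and, after Benjamini-Hochberg adjustment, a p under 0.05. No window of the locus was called: 0 of 7 in MLL-AF9, where 0.0394% of all windows were called, and 0 of 8 in cMyc-Bcl2, where the background was 0.00141%. In the fit common to both models 0 of 7 were called against a background of 3.69%. By the unadjusted p under 0.05, MLL-AF9 had 2 windows, cMyc-Bcl2 had 1 and the common fit had 2, against 14.7%, 12.5% and 19.9% of all windows, and limma on M-values gave the same counts and 0 calls. The median difference over the windows was 6.65 points in MLL-AF9, against 1.31 over all windows tested, and 2.74 points in cMyc-Bcl2, against 0.173. With 7 windows, the MLL-AF9 median is the value of 1 window, that inside Cdkn2b. In that window the MLL-AF9 WT libraries ranged from 1.71% to 51.4%. Knockin was above WT in 6 of 7 windows in MLL-AF9, 6 of 8 in cMyc-Bcl2 and 7 of 7 in the common fit, against 76.3%, 53.0% and 67.0% of all windows.

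**Figure D1:**
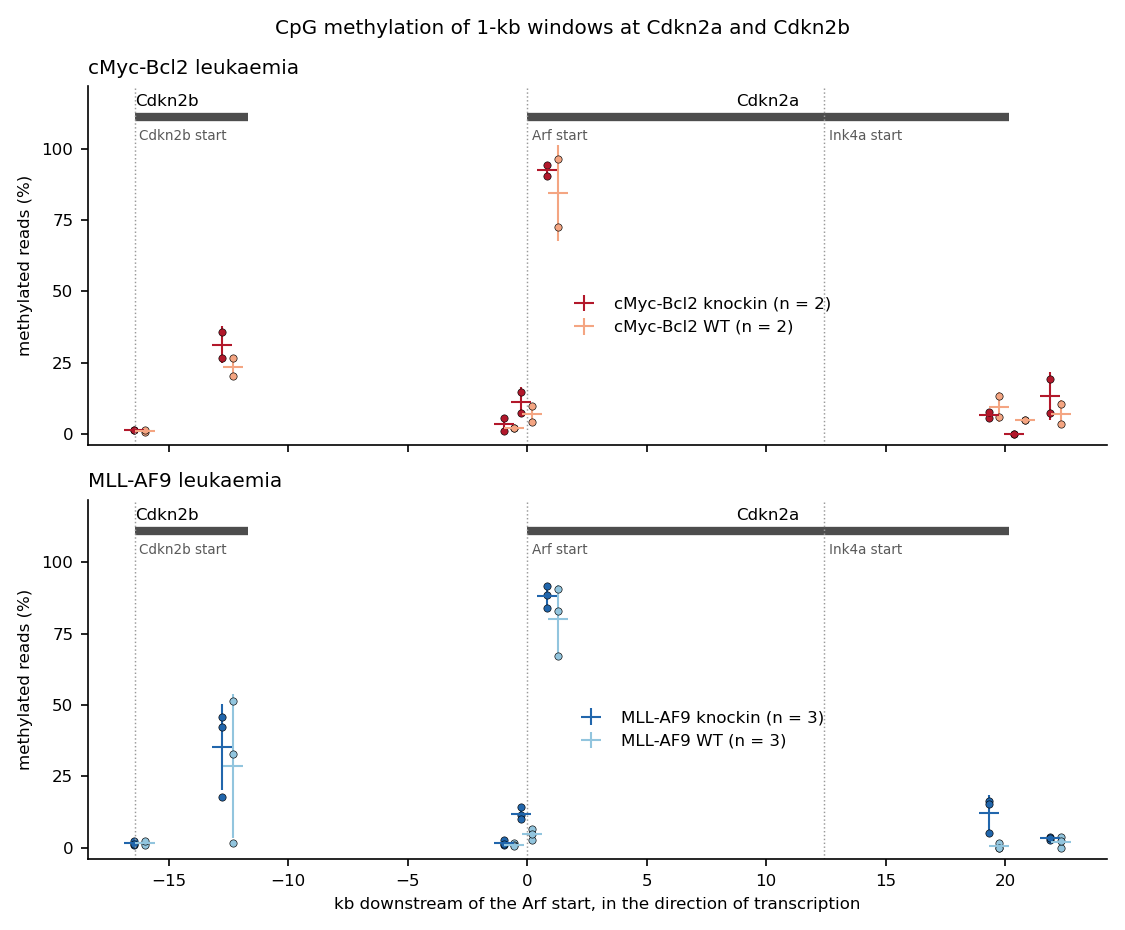
Percentage of methylated reads in each 1-kb window of the locus against its distance from the Arf start in kb, in cMyc-Bcl2 (above) and MLL-AF9 (below) leukaemia; circles are libraries, horizontal ticks the group mean and vertical lines its SD, and bars at the top the genes. The window at the Cdkn2b start lies near 0, and that holding the Arf start lies between 2.77% and 14.8%. The window about 1 kb inside Cdkn2a lies between 67.3% and 96.3% in every library.

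The Ink4a promoter was nearly unread. None of its 12 CpGs reached 5 reads in every library of any comparison. The promoter held 6, 1 and 17 read calls in the MLL-AF9 knockin libraries and 8, 22 and 2 in the MLL-AF9 WT libraries, and 0 in each of the 4 cMyc-Bcl2 libraries. No level is therefore given for this promoter, and a difference was not detectable at this depth.

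The promoter of Arf was almost free of methylation in all 4 groups. In cMyc-Bcl2 leukaemia 31 of its CpGs were read, with a mean of 0.752% and 0.898% in knockin and 0.876% and 0.584% in WT libraries. The groups overlapped and differed by 0.0951 points (exact permutation p = 0.667). In MLL-AF9 leukaemia 5 CpGs were read, 112 to 148 bases upstream of the start, with a mean of 0%, 0.667% and 0.606% in knockin libraries against 0%, 4.40% and 0% in WT libraries. These also overlapped, with a difference of -1.04 points (exact permutation p = 1). The 0 values rest on 29 reads in knockin replicate 1, which allow up to 10.3%, and on 41 and 49 reads in WT replicates 1 and 3, which allow up to 7.32% and 6.12%; such limits and the intervals below cover counting error only. Common to both models the difference was -0.287 points (exact permutation p = 0.85). Of the read calls at mitochondrial CpGs, which show how much cytosine escaped conversion, 0.910 to 3.20% were methylated, so promoter levels of this size cannot be told apart from incomplete conversion.

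Unmethylated sequence continued upstream over most of 1 kb. Over 40 CpGs in the 1 kb before the Arf start, read in all 10 libraries, pooled reads were methylated at 1.21 ± 0.256% in cMyc-Bcl2 knockin, 1.58 ± 0.15% in cMyc-Bcl2 WT, 1.06 ± 0.564% in MLL-AF9 knockin and 0.990 ± 0.165% in MLL-AF9 WT (SD over libraries, n = 2, 2, 3 and 3). The 1-kb window 488 to 1029 bases upstream held 1.72 ± 0.929% in MLL-AF9 knockin against 1.07 ± 0.582% in WT (31 CpGs, SD, n = 3 each). In cMyc-Bcl2 its 47 CpGs held 5.62% and 1.18% in knockin libraries against 1.97% in each WT library. The 3 of them farthest from Arf, at positions 88941511 to 88941552, were higher. They held 15.8 ± 15.8% in cMyc-Bcl2 knockin and 6.32 ± 1.49% in cMyc-Bcl2 WT (SD, n = 2 each).

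Downstream of the Arf start the level climbed over a short distance, and the groups came apart there. The window holding the start, with CpGs from 472 bases upstream to 437 downstream, held 11.6%, 14.2% and 9.89% in MLL-AF9 knockin libraries against 2.77%, 6.52% and 4.71% in MLL-AF9 WT libraries (28 CpGs). All 3 knockin libraries were above all 3 WT libraries, with a mean of 11.9 ± 2.17% against 4.67 ± 1.88% (SD, n = 3 each); 19.1% of all windows in this comparison also had every knockin library above every WT library. The difference of 7.22 points had an unadjusted p of 0.00238 and an adjusted p of 0.146 in the quasi-binomial fit with limma moderation. In cMyc-Bcl2 the window held 14.8% and 7.40% in knockin libraries against 9.79% and 4.34% in WT libraries (74 CpGs), overlapping groups with a difference of 4.05 points (limma-moderated adjusted p = 0.648). In the common fit, over 28 CpGs, the difference was 5.33 points (unadjusted p = 0.0230, adjusted p = 0.164, limma-moderated).

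Split by distance, the difference in that window lay past the first 250 bases of the transcript, a boundary chosen after the values were seen, so the following is a description. Bases 1 to 250 held 3.57 ± 0.817% in cMyc-Bcl2 knockin and 4.11 ± 3.77% in cMyc-Bcl2 WT, and 3.40 ± 0.608% in MLL-AF9 knockin and 2.36 ± 1.16% in MLL-AF9 WT (4 CpGs). The second 250 bases, with 11 CpGs read in all 10 libraries, held 30.6%, 38.1% and 29.2% in MLL-AF9 knockin against 7.53%, 16.2% and 10.2% in MLL-AF9 WT libraries, each from 186 to 357 reads. The lowest MLL-AF9 knockin library had a 95% Wilson interval of 24.2 to 34.9%, and the highest MLL-AF9 WT library one of 12.2 to 21.1%. In cMyc-Bcl2 the same CpGs held 52.0% and 29.0% in knockin against 36.5% and 14.2% in WT libraries, so WT replicate 1 lay above knockin replicate 2. From base 500 to base 1500 every group was heavily methylated, with all 4 CpGs read there in 1 window 1019 to 1095 bases downstream. This window held 90.5% and 94.4% in cMyc-Bcl2 knockin against 96.3% and 72.7% in cMyc-Bcl2 WT libraries, and 84.0%, 91.6% and 88.6% in MLL-AF9 knockin against 67.3%, 82.9% and 90.7% in MLL-AF9 WT libraries. Both pairs of groups overlapped, with differences of 7.93 points in cMyc-Bcl2 and 7.76 in MLL-AF9 (adjusted p = 0.582, limma-moderated, in MLL-AF9). CpGs of 1 MspI fragment share reads and are not independent, and 5 reads give a coarse level.

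**Figure D2:**
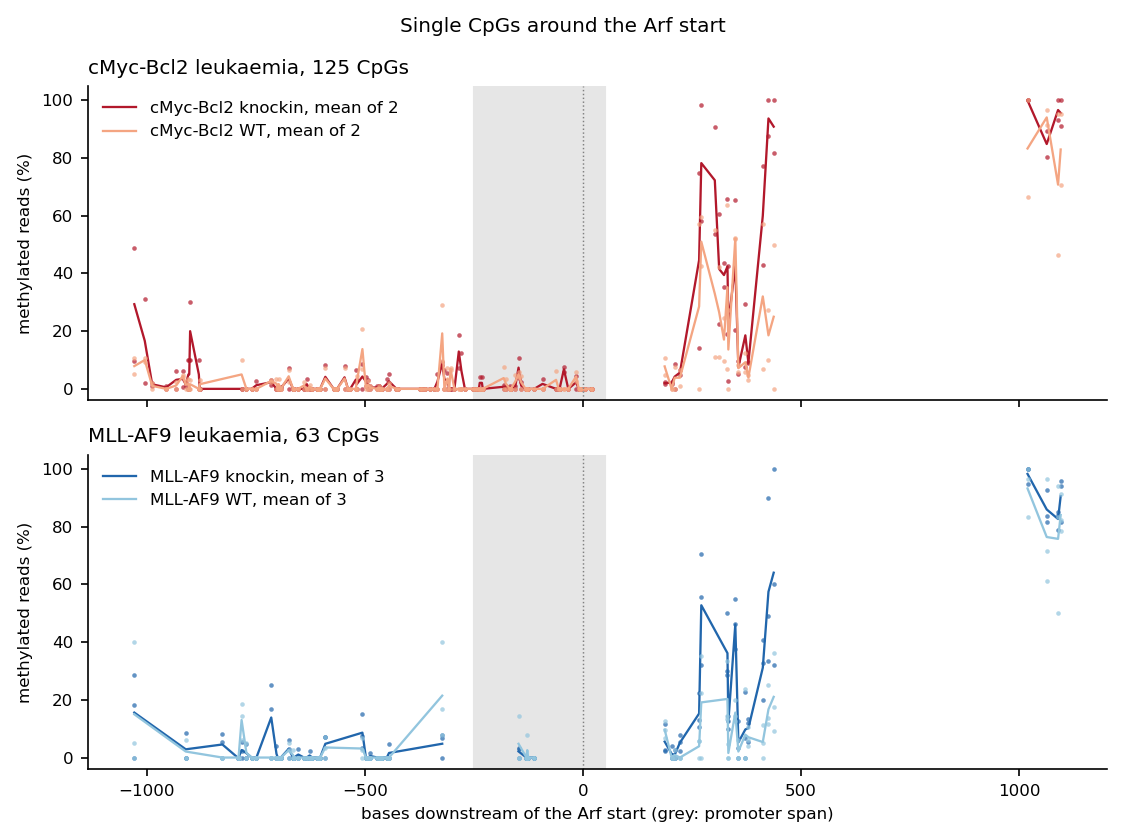
Percentage of methylated reads at single CpGs against bases downstream of the Arf start, in cMyc-Bcl2 (above) and MLL-AF9 (below) leukaemia; points are libraries, lines the group means, broken at gaps over 150 bases, and the grey band the promoter. CpGs within the promoter and most of those upstream lie near 0, and CpGs at 266 to 437 bases range from 0 to 100%.

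Single CpGs showed where within this stretch the libraries separated. The CpG with the largest difference in both models lay 425 bases downstream of the Arf start (chr4, position 88940098). It was methylated in 33.3%, 90% and 49.1% of reads in MLL-AF9 knockin against 13.6%, 11.5% and 25% in MLL-AF9 WT libraries. In cMyc-Bcl2 it was methylated in 87.5% and 100% of reads in knockin against 27.3% and 9.84% in WT libraries, from 11 to 61 reads each. All 5 knockin libraries thus lay above all 5 WT libraries, by a mean of 58.0 points over both models. The CpG 437 bases downstream held 100% and 81.8% in cMyc-Bcl2 knockin against 50% and 0% in cMyc-Bcl2 WT libraries, a difference of 65.9 points from 8 to 18 reads. The CpG 349 bases downstream held 46.2%, 54.8% and 37.5% in MLL-AF9 knockin against 14.3%, 20% and 12.5% in MLL-AF9 WT libraries, a difference of 30.6 points. These CpGs were taken for their size among CpGs whose groups did not overlap, so no test is attached.

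Across the locus 12 of 110 CpGs in MLL-AF9 had every knockin library above every WT library and 1 had the reverse, against 6.21% and 1.06% of all autosomal CpGs. In cMyc-Bcl2 17 of 175 were above and 8 below, against 15.4% and 7.42% of all CpGs, so both shares of the locus, 9.71% and 4.57%, were under the background. In both models at once, with each model's knockin libraries set against its own WT libraries, 4 of 104 were above and 0 below, against 2.07% and 0.139%.

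A second stretch of separation lay near the far end of Cdkn2a, past the Ink4a start, in the part of the gene that both transcripts span. The 1-kb window there held 16.3%, 5.17% and 15.2% in MLL-AF9 knockin against 0%, 1.49% and 0% in MLL-AF9 WT libraries, from 4 CpGs lying 598 to 611 bases before the end of the gene. Every knockin library was above every WT library, as in 19.1% of all windows in this comparison. The difference of 11.7 points had an unadjusted p of 0.00225 and an adjusted p of 0.144 by the limma-moderated fit. Over all reads in the window, from CpGs that differ between libraries, MLL-AF9 knockin held 26.7%, 15.5% and 14.1% and MLL-AF9 WT 0%, 13.1% and 2.5%. By that measure WT replicate 2 lay just under the lowest knockin library. In cMyc-Bcl2, over 3 CpGs, the window held 5.77% and 7.55% in knockin against 13.3% and 5.83% in WT libraries, overlapping groups with a difference of -2.92 points. The difference between the knockin effects in cMyc-Bcl2 and MLL-AF9 was -14.8 points in this window (unadjusted p = 0.00472, adjusted p = 0.253, limma-moderated), and 0 of 7 windows and 0% of all windows were called for it; 1 window of the locus passed the unadjusted threshold, against 11.2% of all windows, and 1 by limma on M-values, with 0 calls.

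The boundary of that window cuts a run of 5 CpGs at positions 88920979 to 88921034 (19489 to 19544 bases downstream of the Arf start), seen only once the values were examined. Pooled over the run, methylation was 25.8%, 17.4% and 19.3% in MLL-AF9 knockin against 3.96%, 1.03% and 0.990% in MLL-AF9 WT libraries. In cMyc-Bcl2 it was 27.7% and 20.2% in knockin against 8.33% and 6.83% in WT libraries. All 5 knockin libraries lay above all 5 WT libraries, each value resting on 48 to 212 reads; for scale, in 6.23% of all 1-kb windows the knockin libraries of each model lay above the WT libraries of that model. In the fit common to both models the unshifted window, with 3 of these CpGs, differed by 4.49 points (limma-moderated adjusted p = 0.274) and was not called. With windows shifted by 500 bp, the run formed 1 window that differed by 17.6 points in the common fit and passed the call rule, as 3.52% of all shifted windows did in this direction. The shift was added because of these CpGs after their values were seen, so this is a description and no p is attached. Leaving out each library in turn gave 15.8 to 19.5 points. Within single models the shifted windows were not called, with 16.4 points in cMyc-Bcl2 and 18.0 points, over 6 CpGs, in MLL-AF9.

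Of the run, the CpG 19504 bases downstream of the Arf start held 40%, 32% and 9.68% in MLL-AF9 knockin against 0%, 0% and 3.45% in MLL-AF9 WT libraries. In cMyc-Bcl2 it held 77.8% and 44.4% in knockin against 0% and 2.86% in WT libraries. The CpG 19489 bases downstream held 30%, 35.7% and 54.5% in MLL-AF9 knockin against 23.5%, 6.67% and 0% in MLL-AF9 WT libraries. In cMyc-Bcl2 it held 46.2% and 38.5% in knockin against 0% and 17.4% in WT libraries. At both CpGs every knockin library exceeded every WT library, by 42.9 and 31.8 points over both models.

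Past the end of Cdkn2a, the window 1932 to 1989 bases beyond it held 2.65%, 3.70% and 3.54% in MLL-AF9 knockin against 3.66%, 0% and 2.27% in MLL-AF9 WT libraries (5 CpGs). In cMyc-Bcl2 it held 7.35% and 19.2% in knockin against 10.5% and 3.62% in WT libraries, and the common difference of 3.76 points had an unadjusted p of 0.0426 and an adjusted p of 0.232 (limma-moderated). A window 445 to 461 bases beyond the end, read in the cMyc-Bcl2 comparison alone, held 0% in both knockin libraries against 5.05% and 5.0% in the WT libraries (3 CpGs), a difference of -5.03 points (limma-moderated adjusted p = 0.385). In cMyc-Bcl2, 23.8% of all windows had both knockin libraries above both WT libraries and 17.2% had the reverse.

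**Figure D3:**
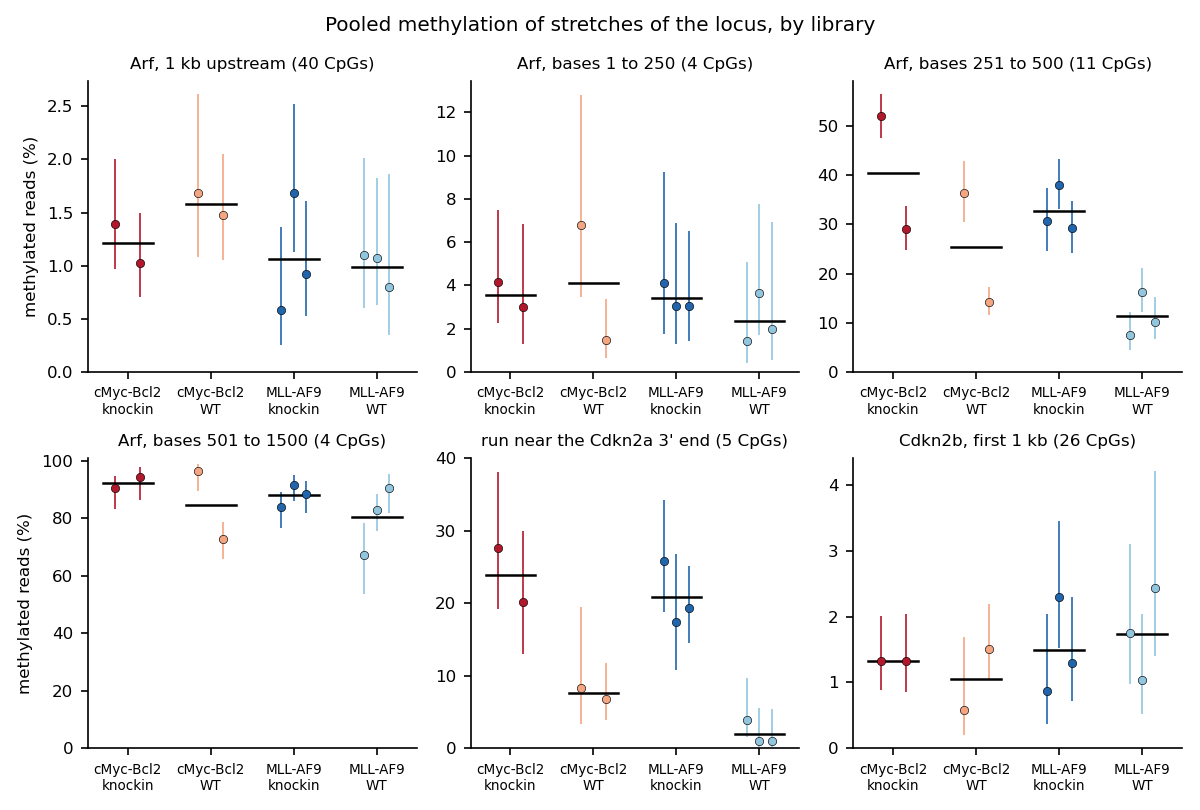
Percentage of methylated reads pooled over the CpGs of 6 stretches of the locus that had 5 or more reads in all 10 libraries, by library and group; bars on points are 95% Wilson intervals and black lines group means. In the second 250 bases of Arf the MLL-AF9 knockin libraries lie between 29.2% and 38.1%, above the WT libraries, and in the run near the Cdkn2a 3′ end all 5 knockin libraries lie above all 5 WT libraries; each panel has its own axis.

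The start of the Cdkn2b transcript was unmethylated in every group. None of the CpGs in the 250 bases before the start entered a comparison, so no level is given for the promoter upstream of it. The 5 CpGs read in the promoter span all lay inside the transcript, from 14 bases past the start. They averaged 0% in both cMyc-Bcl2 knockin libraries against 4% and 0% in cMyc-Bcl2 WT libraries, a difference of -2 points. With 3 of the 4 values at 0 an exact permutation test can give no p but 1. The knockin zeros rest on 91 and 61 reads, which allow up to 3.30% and 4.92%, and the 4% is 1 methylated read of 61. In MLL-AF9 the means were 0%, 1.82% and 1.31% in knockin against 0%, 0% and 1.48% in WT libraries, a difference of 0.550 points (exact permutation p = 0.7). Common to both models it was -0.725 points (exact permutation p = 0.8). The 1-kb window of the start, 14 to 392 bases into the transcript, includes the CpGs of the promoter span. It held 1.49 ± 0.731% in MLL-AF9 knockin against 1.74 ± 0.699% in WT (26 CpGs, SD, n = 3 each). In cMyc-Bcl2 it held 1.31% in each knockin library against 0.542% and 1.47% in the WT libraries (28 CpGs).

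Inside Cdkn2b, 3863 to 3909 bases past its start and near its end, the level was intermediate and spread widely within groups. This window held 17.9%, 45.8% and 42.2% in MLL-AF9 knockin against 1.71%, 32.9% and 51.4% in MLL-AF9 WT libraries (5 CpGs), a difference of 6.65 points (limma-moderated adjusted p = 0.581). In cMyc-Bcl2 it held 35.9% and 26.8% in knockin against 20.4% and 26.6% in WT libraries (6 CpGs), a difference of 7.86 points (limma-moderated adjusted p = 0.656). One of its CpGs, at position 88953078, separated the MLL-AF9 groups, with 25%, 75% and 33.3% in knockin against 5.56%, 14.3% and 20% in WT libraries, from 5 to 24 reads.

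The oncogene comparisons gave no call at the locus either. Among WT leukaemias mean methylation over 127 CpGs was 10.2 ± 2.44% in cMyc-Bcl2 (n = 2) and 8.23 ± 0.966% in MLL-AF9 (SD, n = 3), a difference of 2.01 points (exact permutation p = 0.4, smallest possible 0.1). Among knockin leukaemias it was 13.5 ± 3.21% in cMyc-Bcl2 (n = 2) and 11.6 ± 1.40% in MLL-AF9 (SD, n = 3), a difference of 1.89 points (exact permutation p = 0.5). Weighting by reads turned it to -2.01 points, and leaving out single libraries gave -0.385 to 4.16. Of 7 windows 0 were called among WT leukaemias, where 0.209% of all windows were, and 0 of 7 among knockin leukaemias, where 5.62% were; 1 window in each had an unadjusted p under 0.05, by the quasi-binomial fit and by limma on M-values, against 14.7% of all windows among WT and 26.0% among knockin leukaemias by the quasi-binomial fit.

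Among WT leukaemias, the window near the end of Cdkn2a held 10.6% and 5.88% in cMyc-Bcl2 against 0% in all 3 MLL-AF9 libraries over 5 CpGs. The difference was 8.24 points (unadjusted p = 0.00545, adjusted p = 0.132, limma-moderated), and 16.7% of all windows had both cMyc-Bcl2 libraries above the 3 MLL-AF9 libraries. Over all reads in that window MLL-AF9 WT replicate 2 held 13.1%, above cMyc-Bcl2 WT replicate 2 at 8.33%. In the second 250 bases of Arf, the CpG 349 bases downstream held 52.2% and 52.0% in cMyc-Bcl2 WT against 14.3%, 20% and 12.5% in MLL-AF9 WT libraries. The CpG 271 bases downstream held 59.6% and 42.5% in cMyc-Bcl2 WT against 0%, 35.1% and 22.2% in MLL-AF9 WT libraries. A CpG 3501 bases upstream of Arf went the other way, with 70% and 85.7% in cMyc-Bcl2 WT against 92.9%, 100% and 100% in MLL-AF9 WT libraries. In all, 13 of 127 CpGs were above and 1 below without overlap, against 7.38% and 5.16% of all CpGs.

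Among knockin leukaemias, the window beyond the Cdkn2a end held 7.35% and 19.2% in cMyc-Bcl2 against 2.65%, 3.70% and 3.54% in MLL-AF9 libraries, a difference of 9.98 points (limma-moderated adjusted p = 0.115); 15.3% of all windows had both cMyc-Bcl2 libraries above the 3 MLL-AF9 libraries. Without cMyc-Bcl2 knockin replicate 1 the difference was 15.9 points, which leaves 1 library in that group, so no p is attached. Leaving out any MLL-AF9 library gave no call. A CpG 8526 bases upstream of Arf, between the genes, held 76.4% and 34.8% in cMyc-Bcl2 knockin against 20%, 13.2% and 27.8% in MLL-AF9 knockin libraries. The CpG at position 88953078 inside Cdkn2b held 19.05% and 0% in cMyc-Bcl2 knockin, below every MLL-AF9 knockin library. The CpG 19504 bases downstream of Arf had both cMyc-Bcl2 knockin libraries above all MLL-AF9 knockin libraries. In all, 13 of 131 CpGs were above and 3 below without overlap, against 10% and 8.49% of all CpGs.

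A list of 40 further genes placed the locus in its pathway: neighbours on the chromosome, other cyclin-dependent kinase inhibitors, cyclin D kinases, retinoblastoma and E2F proteins, the Mdm2 and p53 arm, Polycomb subunits and regulators of Ink4a and Arf. Promoters of 26 were placed on mm9, and a comparison had 27 or 28 promoter windows with reads. None was called for the knockin (0 of 28 in MLL-AF9, 0 of 28 in cMyc-Bcl2, 0 of 27 for both models together), and their median differences were 0.262, -0.0915 and -0.0815 points. The largest common differences were at Dmrta1 and Elavl2, also on chromosome 4, and at Cbx7, a Polycomb subunit known to repress the locus. The Dmrta1 start was placed at position 89354889 and the Elavl2 start at 91038731, against 88956941 for Cdkn2b. Dmrta1, a DM domain gene, held 33.7 ± 21.1% in cMyc-Bcl2 knockin against 23.7 ± 19.9% in cMyc-Bcl2 WT (n = 2 each), and 28.5 ± 11.7% in MLL-AF9 knockin against 12.9 ± 7.60% in MLL-AF9 WT (SD, n = 3 each). Cbx7 held 6.65 ± 0.452% in cMyc-Bcl2 knockin against 2.87 ± 1.91% in WT, and 4.60 ± 3.86% in MLL-AF9 knockin against 2.75 ± 1.35% in WT (limma-moderated adjusted p = 0.181 in the common fit).

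Elavl2, which encodes a neuronal RNA-binding protein, passed neither the test of a knockin effect nor that of a difference between the models. A further window of its starts, tested in cMyc-Bcl2 alone over 9 CpGs, held 21.6 ± 0.277% in knockin against 7.16 ± 0.0837% in WT (adjusted p = 0.168, limma-moderated, n = 2 each). Over 53 CpGs the window tested in every comparison held 50.8 ± 5.55% in cMyc-Bcl2 knockin against 22.8 ± 6.27% in cMyc-Bcl2 WT (limma-moderated adjusted p = 0.113, n = 2 each). In MLL-AF9 that window held 22.9 ± 3.15% in knockin against 27.9 ± 6.29% in WT (adjusted p = 0.374, limma-moderated, n = 3 each). Over the 27 CpGs read in all 10 libraries the knockin effect in cMyc-Bcl2 minus that in MLL-AF9 was 30.4 points (limma-moderated adjusted p = 0.112). It was the 1 promoter window of 27 called between knockin leukaemias, higher in cMyc-Bcl2 at 45.4 ± 1.81% against 22.4 ± 3.07% in MLL-AF9 (23.0 points, limma-moderated adjusted p = 0.0123), where 3.13% of all windows were called higher. That call was lost by limma on M-values (adjusted p = 0.155) and without MLL-AF9 knockin replicate 2 or 3 (limma-moderated adjusted p = 0.0666 and 0.103). Between WT leukaemias 0 of 28 were called, and the largest difference was at Ccnd3, encoding cyclin D3, with 40.6 ± 26.3% in cMyc-Bcl2 against 15.6 ± 6.37% in MLL-AF9. It rests on 3 CpGs at positions 47641261 to 47641314, upstream of the promoter span, which begins at 47641750.

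Read depth over the locus was measured as a check for deletion, as the locus's share of autosomal read calls divided by the median share of the 10 libraries. It was 0.962 and 1.14 in cMyc-Bcl2 knockin against 0.872 and 1.07 in cMyc-Bcl2 WT libraries, and 1.01, 1.01 and 0.884 in MLL-AF9 knockin against 1.00, 0.998 and 0.960 in MLL-AF9 WT libraries. On the log2 scale knockin differed from WT by 0.12 in cMyc-Bcl2 (exact permutation p = 0.667) and by -0.03 in MLL-AF9 (exact permutation p = 1), and cMyc-Bcl2 WT differed from MLL-AF9 WT by -0.03 (exact permutation p = 0.8). A loss of 1 copy in all cells of 1 library would bring its value near 0.5. The median comes from these leukaemias themselves, so a loss shared by most of them would go unseen. For scale, autosomal stretches of 47 kb with at least 50 CpGs were measured at the CpGs listed in all 10 libraries. By that measure the locus lay between 0.871 and 1.11. Of 5375 such stretches, 0.986% fell under 0.5 in some library. Under 0.75 lay 34.9% of such stretches, so a loss in part of the cells cannot be told apart from the usual spread. Relative to 1 Mb on each side, cMyc-Bcl2 WT replicate 1 had a depth of 0.564, and 0.707 without the deepest 50 kb of these flanks, which held 35.7% of its flank reads. Against these flanks the log2 difference was 0.33 between cMyc-Bcl2 knockin and WT (exact permutation p = 1) and -0.37 between cMyc-Bcl2 WT and MLL-AF9 WT (exact permutation p = 0.5). Without the deepest 50 kb the difference between the WT groups was -0.31 (exact permutation p = 0.1, the smallest 2 against 3 libraries allow), and that between cMyc-Bcl2 knockin and WT was 0.093 (exact permutation p = 1).

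**Figure D4:**
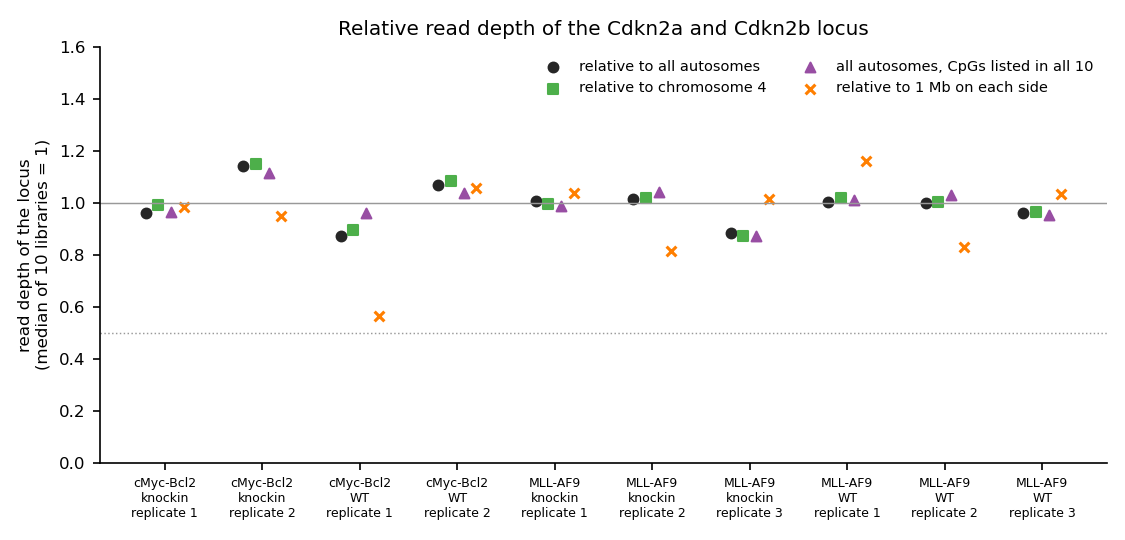
Read depth of the locus in each library, by group, scaled so that the median of the 10 libraries is 1, relative to all autosomes, chromosome 4 or 1 Mb on each side, and at CpGs listed in all 10 libraries; lines mark 1 and 0.5. Relative to all autosomes the libraries lie between 0.872 and 1.14, and the lowest value, 0.564, is cMyc-Bcl2 WT replicate 1 relative to its flanks.

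Depth differed between windows. The window of the Arf start ranged from 0.773 to 1.40 and that of the Cdkn2b start from 0.594 to 1.11. The window near the Cdkn2a end ranged from 0.258 in cMyc-Bcl2 knockin replicate 1, with 72 reads, to 1.33 in cMyc-Bcl2 WT replicate 1, and the one 445 to 461 bases beyond the end from 0.134 in MLL-AF9 knockin replicate 3, with 4 reads, to 7.79 in cMyc-Bcl2 WT replicate 1. The part of these depth differences in the methylation values of the same windows was not tested.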

How the data were processed

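DNA methylation was measured in 10 reduced representation bisulfite libraries of 4 groups, set from the oncogene and knockin labels. Per the labels' protocols, gel-selected MspI fragments had inserts of 40 to 280 bp, and runs carried 45% PhiX. Per the submitters' processing notes, Bismark 0.7.4, Trim Galore 0.2.2, methylKit and CASAVA were used, with mm9 as the build and settings not given in the sources used here. The deposited files give, per cytosine, a pair of counts, methylated and unmethylated. Each file lists 1 strand after the other on every chromosome, so the counts of both strands were joined per CpG. Which count is the methylated one is taken from the values, since mitochondrial CpGs come out nearly unmethylated. Library correlations within groups were 0.933 to 0.971, and no libraries were treated as 1.

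CpGs needed 5 reads in every library of a comparison, on 19 autosomes. Means counted each CpG once and were compared by an exact two-sided permutation test, stratified by oncogene over both models. Reads summed in 1000-bp windows with 3 or more CpGs were fitted with a quasi-binomial model, dispersion moderated by limma 3.58.1 (R 4.3.3) and held at 1 or above, then an F-test with Benjamini-Hochberg adjustment over all windows. The fits of the knockin comparisons were also run on simulated counts with a fixed dispersion, and that outcome is not reported here. Python 3.11.15, numpy 2.4.6, pandas 2.3.3, scipy 1.17.1 and matplotlib 3.10.9 were used otherwise.

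RefSeq promoter sequences (GRCm38.p6) were placed on mm9 by the spacing of their CpGs, with at least 5 listed CpGs in the span, 90% of them matched and 3 more matches than anywhere else on the chromosome; no coordinate was converted. Named single CpGs are the 3 largest differences per comparison among those whose groups did not overlap, and named pathway promoters every call or otherwise the largest differences. The members and gene lists were chosen with earlier results of these data known. Alternatives were read minimums of 1 and 10, weighting by reads, 500-bp windows, M-values with 0.5 added, other depth baselines and leaving out each library; added after seeing the data were strands apart, the 4 groups in one fit, windows shifted by 500 bp, flanks without their deepest 50 kb and all alternatives for the pathway promoters. Chromosomes X and Y and expression were not used here.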

Additional observations from a re-analysis of the deposited data

How the results depend on the processing

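No paired analysis was possible because the labels give no replicate numbers shared between groups. Apart from fits that left 1 library in a group, counts of called windows at the locus stayed at 0. The exception was 1 in the common fit with windows shifted by 500 bp. Over all windows, limma on M-values called 49 higher in the common fit against 1571 by the quasi-binomial fit, 0 against 18 in MLL-AF9, 4 against 60 between WT and 521 against 1611 between knockin leukaemias, and with the 4 groups in one fit 2396 were called higher in cMyc-Bcl2 against 1 when fitted apart. Of the pathway promoters, 1 was called in cMyc-Bcl2 with the 4 groups in one fit, and between knockin leukaemias 0 by limma on M-values and 0 to 1 leaving out libraries. The cause was not tested.

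The common difference over the locus was 2.45 points with CpGs weighted by reads and 2.69 to 4.83 leaving out each library. Weighted by reads the oncogene difference among knockin leukaemias was -2.01 points, and without single libraries -0.385 to 4.16. The difference of knockin effects over the locus was 0.192, 0.340 and 0.531 points with minimums of 1 and 10 reads and with strands apart, and -2.24 to 2.04 without single libraries.

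Promoter differences changed sign often. For Cdkn2a they were -0.229, -0.0641 and -0.149 points in cMyc-Bcl2 (1 read, 10 reads, strands apart), 0.207 in common weighted by reads, and 0.480 and 0.263 between WT leukaemias (1 and 10 reads). Leaving out libraries gave -1.77 to 0.424 in MLL-AF9, -0.0510 to 0.241 in cMyc-Bcl2, -0.653 to 0.445 in common and -0.0497 to 1.08 between knockin leukaemias. For Cdkn2b the common difference was 0.274 at 10 reads and -1.72 to 0.275 leaving out libraries, and that between WT leukaemias -0.494 to 3.51.

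Relative depth on the log2 scale between WT leukaemias was 0.0036 at CpGs listed in all 10 libraries, -0.37 against the flanks and -0.31 against the flanks without their deepest 50 kb; between cMyc-Bcl2 knockin and WT it was 0.33 against the flanks; without single libraries, relative to all autosomes, it ranged from -0.065 to 0.034 in MLL-AF9, -0.031 to 0.26 in cMyc-Bcl2 and -0.18 to 0.12 between WT leukaemias.

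Without single libraries 6 window differences changed sign. In MLL-AF9 the window inside Cdkn2b ranged from -6.82 to 18.0 points and that of its start from -0.653 to 0.0989. In cMyc-Bcl2 the ranges were -6.68 to 0.833 near the Cdkn2a end, -3.88 to 19.7 1 kb into Cdkn2a, -0.794 to 3.65 upstream of Arf and -0.160 to 0.768 at the Cdkn2b start.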
